A study of Mus musculus with 4 samples.

Results

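The genes described here are those of hepatic carbohydrate metabolism: glycolysis, gluconeogenesis, the handling of pyruvate and lactate, the pentose phosphate pathway, glycogen, and the entry of fructose and galactose. They were chosen by name, as 44 gene symbols, and a symbol was taken as measured where it stands in the deposited gene list exactly as written. Of the 44 symbols, 25 were found among the 7000 genes listed and 19 were not. Liver RNA came from male wild-type FVB/N mice, an inbred strain, that received after weaning a Se-deficient diet to which either no Se (0 ppm, 0 Se mice) or 0.1 ppm Se as sodium selenite (0.1 Se mice) had been added. Both diets were fed for 6 weeks, and total RNA depleted of ribosomal RNA was sequenced from 2 mice per diet. All 4 mice share the strain, the sex and the Se-deficient base diet, and none carries an engineered allele.

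The single level available for each gene is the authors' mean over all 4 libraries, in counts per 1000000 aligned reads (CPM) on a log2 scale, which was returned here to linear CPM and divided by the listed mRNA length to give CPM per kilobase. Because the list holds no value for a single mouse, no depth per library, spread between mice or error of a level could be given, and the diets were not compared. Each value below is therefore a description of the pooled livers, in which cells of several types are mixed, so that fewer cells of a type and less RNA per cell cannot be told apart. A gene that is not listed may still have been expressed: albumin (Alb), transthyretin (Ttr) and Cps1, among the most abundant hepatocyte mRNAs, are not listed either. The tissue label was checked with marker genes. The 4 listed hepatocyte markers, of 7 named, lay between 595 CPM per kilobase for Tat and 7619 CPM per kilobase for Apoa1. The 5 listed Kupffer cell markers, of 6 names, ranged from 5.15 to 74.8 CPM per kilobase, and 1 of 4 lymphocyte markers (Ptprc, 3.93) and 1 of 4 erythroid markers (Alas2, 19.1) were listed. None of 6 skeletal muscle markers was listed. Since whether a gene is listed was not read as a result, these counts of listed markers do not bear on the label.

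Liver cells take up glucose after a meal and either break it down through glycolysis to pyruvate, store it as glycogen, or oxidise glucose 6-phosphate in the pentose phosphate pathway, which yields NADPH and ribose 5-phosphate. During fasting the same cells run the route in the other direction, making glucose from lactate, alanine and glycerol by gluconeogenesis and releasing it into blood. Most steps of both directions are shared and reversible, and the direction is set at a few steps that have separate enzymes for each way, among them phosphofructokinase against fructose-1,6-bisphosphatase and pyruvate kinase against pyruvate carboxylase together with phosphoenolpyruvate carboxykinase.

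The 25 listed genes were among the more abundant mRNAs of the list. Their median was 84.4 CPM per kilobase beside 6.19 for all 7000 listed genes, a 13.6-fold ratio of the medians, and the median member stood at percentile 92.7. Of the 25, 17 (68% of them) lay above the 90th percentile of all listed genes, which was 57.5 CPM per kilobase, and 3 (G6pdx, Gyg and Pfkfb3) lay below the median. Without division by length, Pfkfb3 (27.8 CPM) lay above the median of all listed genes (18.7 CPM). The levels spanned 378-fold, from 2.11 CPM per kilobase for G6pdx to 799 for Pck1. Together the 25 genes made up 7809 of the 647615 CPM in the list, or 1.21%, and the 3 largest of them (Pck1, Fbp1 and Ugp2) contributed 46.4% of that sum.

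**Figure D1:**
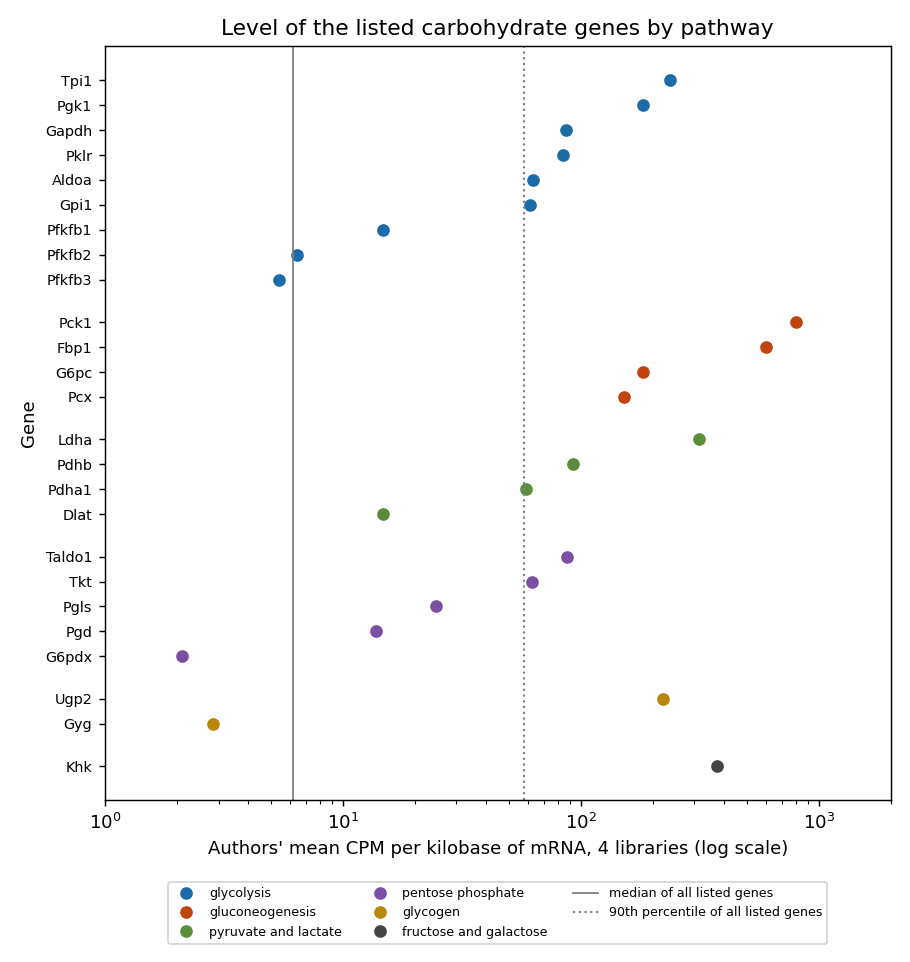
Level of each listed gene, as the authors' mean CPM per kilobase of mRNA over 4 libraries on a log axis, grouped and coloured by pathway, with the median (solid line, 6.19) and the 90th percentile (dotted line, 57.5) of all 7000 listed genes. Each point is 1 gene and has no error bar, since no value per mouse was available. All 4 gluconeogenic genes lie to the right of the dotted line, and the pentose phosphate genes run from 2.11 to 87.5.

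The pathways differed in how much mRNA they held. The 4 listed gluconeogenic genes summed to 1731 CPM per kilobase and to 51.0% of the CPM of all members, although they are 4 of 25 genes. The 9 listed glycolytic genes summed to 740 CPM per kilobase, or 18.2% of the members' CPM. The pyruvate and lactate genes held 11.9% of the members' CPM, the glycogen genes 8.77%, the fructose and galactose genes 5.35% and the pentose phosphate genes 4.73%. These sums cover listed genes only, and 2 of 7 glycogen genes and 1 of 3 fructose and galactose genes were listed, so the sums do not rank the pathways as a whole. With CPM divided per 1000 unique 50-base windows (stretches found in no other gene), the glycolytic genes summed to 2416 and the gluconeogenic genes to 1732, with Gapdh alone at 1477.

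**Figure D2:**
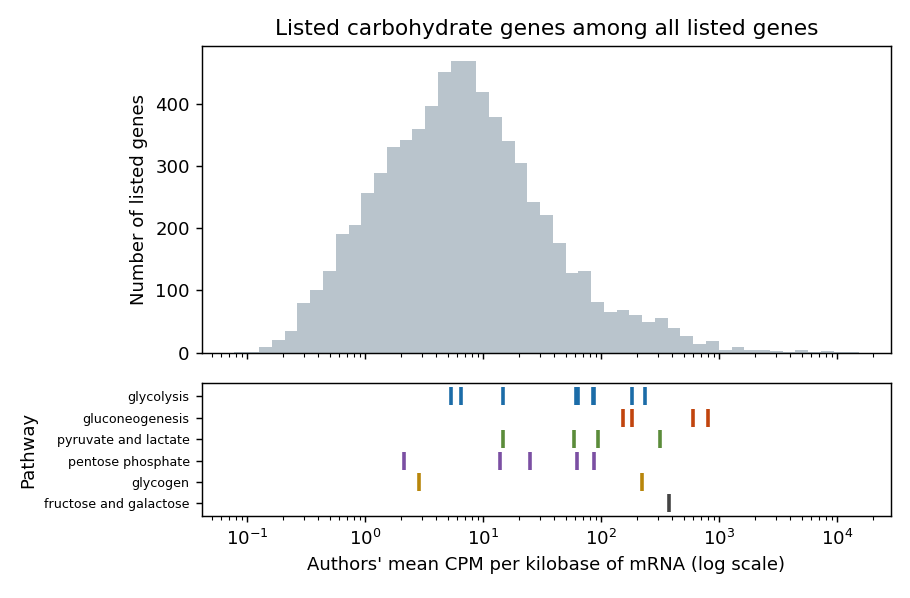
Upper panel, number of listed genes by the authors' mean CPM per kilobase of mRNA (log axis) for all 7000 listed genes. Lower panel, the 25 listed carbohydrate genes on the same axis, 1 tick per gene and 1 row per pathway, of which 17 lie above the 90th percentile of 57.5.

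Of the 16 glycolytic symbols, 9 were listed, and 6 of these lay above the 90th percentile. Triosephosphate isomerase (Tpi1), which interconverts the triose phosphates made in the step before, was the highest at 236 CPM per kilobase (378 CPM). Tpi1 lies on chromosome 6 of NCBIM37 (mm9) at chr6:124760604-124764314 on the minus strand and has 7 exons. Phosphoglycerate kinase 1 (Pgk1, chrX:103382439-103399038), which makes ATP from 1,3-bisphosphoglycerate, followed at 183 CPM per kilobase (329 CPM). Glyceraldehyde-3-phosphate dehydrogenase (Gapdh, chr6:125111871-125116485) stood at 86.3 CPM per kilobase and the liver pyruvate kinase gene (Pklr, chr3:88940064-88950706) at 84.4. Aldolase A (Aldoa, chr7:133938748-133944265) had 63.1 CPM per kilobase and glucose-6-phosphate isomerase (Gpi1, chr7:34987141-35015308), which makes fructose 6-phosphate, had 60.9. With no error on any level, neighbours as close as Gapdh and Pklr (ratio 1.02) or Aldoa and Gpi1 (ratio 1.04) were not ranked. Both orders turned when the length of the nearest GENCODE transcript was used (ratios 0.990 and 0.758). For Gpi1 that transcript has 2037 bases beside 2856 listed. With CPM divided by the number of 50-base stretches found in no other gene, Gapdh stood 14.2-fold above Pklr, as set out with the copies of Gapdh.

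The glycolytic trunk is a sequence of steps in which several enzymes have more than 1 isozyme, and the isozymes differed widely in level. Aldoc, the brain form of aldolase, is not among the 44 symbols but was listed at 9.61 CPM per kilobase, beside 63.1 for Aldoa, the form of muscle and many other tissues. For the last step, Pklr exceeded Pkm, the gene of the muscle-type pyruvate kinase, by 9.87-fold per kilobase, with Pkm at 8.55. The symbol Pkm2 in the set is an older name of the Pkm gene and was not listed under that spelling. The platelet-type phosphofructokinase gene Pfkp was listed at 0.701 CPM per kilobase, whereas the liver type (Pfkl) was not listed. In all, 10 of 18 trunk symbols read here, isozymes included, were listed.

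Hexose entry was almost unrepresented. The hexokinase genes Hk1 and Hk2, and Gckr, were not listed, nor were the glucose transporter genes Slc2a1 and Slc2a2. Hk3 was the 1 listed gene of 7 read for that step, at 2.59 CPM per kilobase. The other members not listed in this pathway were Pfkl, phosphoglycerate mutase 1 (Pgam1) and enolase 1 (Eno1). Bpgm, a mutase known for making 2,3-bisphosphoglycerate in red cells, was listed at 10.4 CPM per kilobase.

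The bifunctional enzymes encoded by Pfkfb1, Pfkfb2 and Pfkfb3 make and degrade fructose 2,6-bisphosphate, the signal that turns phosphofructokinase on and fructose-1,6-bisphosphatase off. All 3 were listed, and each lay below the 6 listed trunk enzymes among the members. Pfkfb1, the gene of the liver isozyme, had 14.7 CPM per kilobase, Pfkfb2 had 6.44 and Pfkfb3 had 5.37, so that Pfkfb1 was 2.28-fold above Pfkfb2 and 2.73-fold above Pfkfb3 per kilobase. This order rests on the division by length. Pfkfb2 (7308 bases) and Pfkfb3 (5181 bases) have long mRNAs beside Pfkfb1 (1721 bases), and in CPM without length Pfkfb1 (25.2) lay below both Pfkfb2 (47.1) and Pfkfb3 (27.8). Pfkfb4 and Tigar were not listed.

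**Figure D3:**
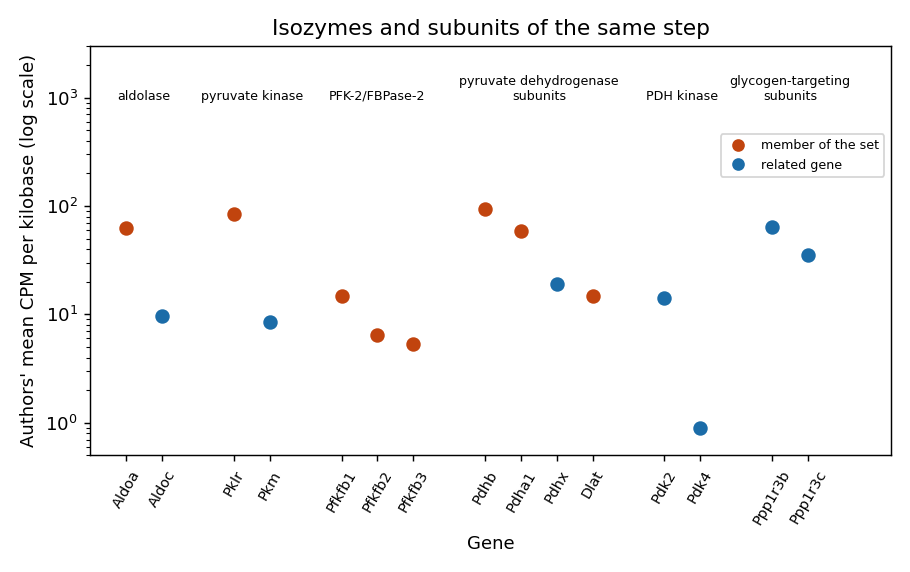
Authors' mean CPM per kilobase (log axis) of isozymes and subunits that serve the same step, with members of the set in red and related genes in blue, 1 point per gene and no error bars. Aldoa stands at 63.1 beside 9.61 for Aldoc, and Pklr at 84.4 beside 8.55 for Pkm.

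The levels of 6 members depend on which reads could be placed uniquely. The authors kept reads of 50 bases that aligned to a single gene with up to 2 mismatches, so a stretch of mRNA that another gene repeats gives few or no counts. Each 50-base window of the GENCODE transcript nearest in length was therefore compared with the longest transcript of every other protein-coding gene of that annotation. For members that were not listed, which have no listed length, the longest GENCODE transcript was used. At least 95% of the windows were found in no other gene for 19 of the 25 members, and a smaller share was unique for Gapdh, Gpi1, Aldoa, G6pdx, Pklr and Pdha1. The authors aligned to RefSeq mRNAs, which may not hold the same copies, so these shares are a guide and not a correction.

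Gapdh was the extreme case: 72 of its 1223 windows (5.89%) were unique, and 33 other annotated genes shared at least 1 window, most of all the copy Gm5559 with 94.1%. Gpi1 shared 64.2% of its windows with Gm1840 and had 35.8% unique. The Gpi1 transcript searched has 2037 bases beside a listed length of 2856, so these shares do not cover the full listed mRNA. Aldoa had 52.2% unique windows, with Aldoart1, a retrotransposed aldolase gene, holding the largest shared part. G6pdx, the X-linked glucose-6-phosphate dehydrogenase gene, shared 27.8% with its autosomal copy G6pd2. Pklr (82.8% unique) and Pdha1 (83.1% unique) shared stretches towards the 3′ ends of their transcripts, with Hcn3 and Map3k15. Examples of such windows are printed to show how alike the copies are. Each is 50 bases of coding sequence, 5′ to 3′, from GENCODE vM1 transcripts on NCBIM37, counted from the first base of the member's mRNA, and capitals mark the bases that differ.
Gapdh, bases 93 to 142, the same in Gm5559: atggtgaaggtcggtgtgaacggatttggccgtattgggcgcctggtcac
Aldoa, bases 133 to 182: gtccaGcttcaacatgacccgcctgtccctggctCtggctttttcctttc
Aldoart1: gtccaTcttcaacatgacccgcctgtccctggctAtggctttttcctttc
Gpi1, bases 131 to 180: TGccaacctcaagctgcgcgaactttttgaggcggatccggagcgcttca
Gm1840: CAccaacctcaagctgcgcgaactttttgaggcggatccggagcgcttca
G6pdx, bases 447 to 496: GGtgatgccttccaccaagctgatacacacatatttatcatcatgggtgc
G6pd2: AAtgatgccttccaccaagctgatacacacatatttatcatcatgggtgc

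Divided by the number of unique windows in place of the length, Gapdh rose to 1477 CPM per 1000 windows, Gpi1 to 245 and Aldoa to 128. The value for Gpi1 may be too high, since part of its listed mRNA was not searched for unique windows. On that scale Gapdh was the highest of the 25 members, above Pck1 (806) and Fbp1 (599), whereas per kilobase it lay below Tpi1 and Pgk1. The ratio of Tpi1 to Gapdh was 2.74 per kilobase and 0.170 per unique window, and that of Gapdh to Pklr was 1.02 per kilobase and 14.2 per unique window. G6pdx stayed the lowest listed pentose phosphate gene, at 2.94 CPM per 1000 unique windows. Among members that were not listed, Pgam1 (8.70% unique, shared with Gm8910) and Eno1 (20.3% unique, shared with Gm5506) stood out, and Gm5506 itself was listed at 26.2 CPM per kilobase. Rpe had 80.7% unique windows, and the other 16 of the 19 unlisted members had at least 95%.

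**Figure D4:**
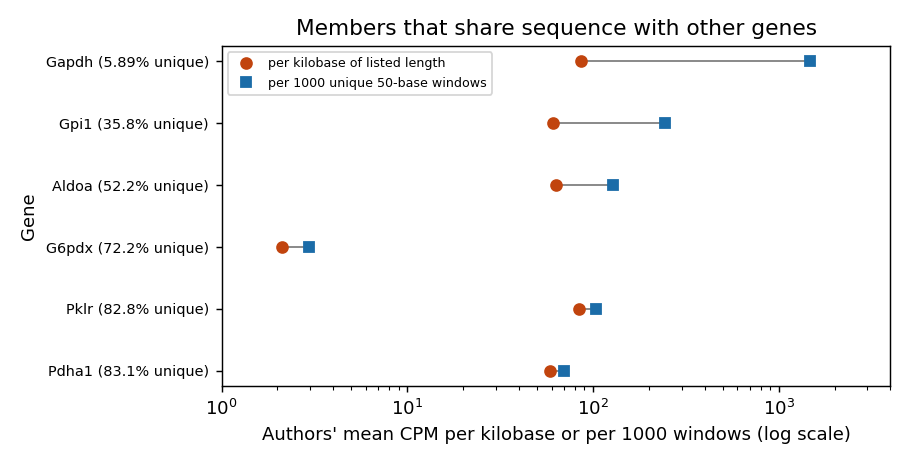
The 6 members with under 95% unique 50-base windows, as the authors' mean CPM per kilobase of listed length (circles) and per 1000 unique windows (squares) on a log axis, with no error bars. The gap is widest for Gapdh, from 86.3 to 1477, and narrow for Pdha1, from 58.8 to 69.8. For Gpi1 the windows come from a transcript shorter than the listed length.

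Gapdh also served the study as the reference gene of its qPCR assays, and the primers are shown because of the copies described above. Both lie in coding sequence of Gapdh on chromosome 6 of NCBIM37, the forward primer on the minus strand at chr6:125112518-125112536 and the reverse primer on the plus strand at chr6:125112307-125112326. The forward primer was found without a mismatch in the transcripts of 14 other annotated genes and the reverse primer in those of 21, and transcripts of 11 other genes held both. A match of letters does not show that such a copy was transcribed in liver or amplified.
Forward primer: atgtgtccgtcgtggatct
Reverse primer: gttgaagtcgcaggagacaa

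All 4 listed gluconeogenic genes lay above the 90th percentile. Phosphoenolpyruvate carboxykinase 1 (Pck1, chr2:172978549-172984774, 10 exons), which turns oxaloacetate into phosphoenolpyruvate in the cytosol, was the most abundant of the 25 members per kilobase and in CPM, at 799 CPM per kilobase (2089 CPM), percentile 99.2, and came after Gapdh per unique window. Fructose-1,6-bisphosphatase 1 (Fbp1, chr13:62966113-62989642) came next at 598 CPM per kilobase (857 CPM), percentile 99.0. The catalytic subunit of glucose-6-phosphatase (G6pc, chr11:101228875-101239217), which frees glucose for release, had 183 CPM per kilobase (411 CPM). Pyruvate carboxylase (Pcx, chr19:4510472-4621752, 21 exons), the mitochondrial enzyme that makes oxaloacetate from pyruvate, had 151 CPM per kilobase (628 CPM).

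Between pyruvate and phosphoenolpyruvate, where each direction has enzymes of its own, both gluconeogenic mRNAs stood above that of the glycolytic enzyme. The study's methods do not state whether the mice were fed or fasted, nor the hour of sampling, so the ratios describe these livers only. Pck1 exceeded Pklr by 9.46-fold per kilobase and exceeded Pcx by 5.28-fold (3.33-fold in CPM without length), and Pcx (151) also lay above Pklr (84.4). Pck1 stood 1.34-fold above Fbp1 per kilobase and 2.44-fold above it in CPM, and Fbp1 exceeded G6pc by 3.27-fold per kilobase and 2.08-fold in CPM. The glucose-6-phosphate transporter gene Slc37a4, which brings the substrate to G6pc in the endoplasmic reticulum, is no member but was listed at 138 CPM per kilobase, so that G6pc stood 1.33-fold above it. The mitochondrial Pck2 was not listed, nor were G6pc3 and Fbp2, and 5 of the 8 symbols of the wider pathway were. The opposed liver enzymes at fructose 6-phosphate could not be set side by side, since Pfkl was not listed.

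Of the 5 pyruvate and lactate symbols, 4 were listed. Lactate dehydrogenase A (Ldha, chr7:54096845-54110997), which interconverts pyruvate and lactate, had 313 CPM per kilobase (569 CPM), percentile 97.6. The pyruvate dehydrogenase complex, which commits pyruvate to acetyl-CoA in mitochondria, was represented by its E1 beta subunit (Pdhb) at 93.0 CPM per kilobase, its E1 alpha subunit (Pdha1) at 58.8 and its E2 subunit (Dlat) at 14.8. The E3 subunit gene Dld was not listed. Subunits of 1 complex thus differed by 6.29-fold per kilobase between Pdhb and Dlat (2.31-fold in CPM without length), and by 1.58-fold between the E1 subunits Pdhb and Pdha1. The latter order turned without division by length (ratio 0.851), whereas Dlat remained the lowest of the 3 in CPM. The E3-binding subunit Pdhx stood at 19.1 CPM per kilobase, near Dlat (ratio of Dlat to Pdhx, 0.774).

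The enzymes that inhibit the complex by phosphorylation were also uneven. Pdk2 had 14.1 CPM per kilobase and Pdk4, known to rise with fasting, had 0.893, a 15.7-fold ratio (10.3-fold in CPM without length). Whether these mice had fasted is not stated in the study's methods. Pdpr, the regulatory subunit of the phosphatase that reactivates the complex, had 6.98. At the branch point of pyruvate, Pcx exceeded Pdha1 by 2.57-fold and Ldha exceeded Pdha1 by 5.33-fold per kilobase (3.87-fold and 3.50-fold in CPM without length). Of the 19 symbols in the list for lactate and pyruvate oxidation, older names of the pyruvate carrier genes included, 8 were listed, and Ldhb was not.

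Among the listed pentose phosphate genes, those of the oxidative arm lay below those of the non-oxidative arm. Members of each arm are missing from the list, so the arms as a whole were not compared. Of 8 symbols, 5 were listed. In the oxidative arm, G6pdx (chrX:71654822-71674533, 13 exons) takes the first NADPH-forming step. By length-divided level it was the lowest of all 25 members, at 2.11 CPM per kilobase (5.53 CPM), percentile 25.3. In CPM without length, Gyg (4.87) lay below G6pdx. 6-Phosphogluconolactonase (Pgls) had 24.7 CPM per kilobase and 6-phosphogluconate dehydrogenase (Pgd), which takes the second NADPH-forming step, had 13.7. In the non-oxidative arm, which rearranges sugar phosphates and connects back to glycolysis, transaldolase (Taldo1, chr7:148578098-148588867) had 87.5 CPM per kilobase and transketolase (Tkt, chr14:31361545-31387908) had 62.4.

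Tkt exceeded G6pdx by 29.5-fold and Taldo1 exceeded it by 41.4-fold per kilobase, and Pgd exceeded it by 6.50-fold. In CPM without length the ratio to G6pdx was 36.2 for Tkt and 20.2 for Taldo1. The order of Pgls and Pgd (ratio 1.80) and that of Taldo1 and Tkt (ratio 1.40) both turned in CPM without length, to 0.714 and 0.558. Pgls has the shortest mRNA of the 25 members, 883 bases, and its percentile fell by 25.8 points when length was left out. The members not listed were H6pd, the glucose-6-phosphate dehydrogenase of the endoplasmic reticulum, and the pentose isomerase and epimerase genes Rpia and Rpe. Of the related genes, Prps1 (11.2 CPM per kilobase) and Prps2 (8.0), which turn ribose 5-phosphate into the precursor of nucleotides, and the ribokinase gene Rbks (6.97) were listed, which made 8 of 12 symbols.

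For glycogen, 2 of 7 symbols were listed and they stood far apart. UDP-glucose pyrophosphorylase 2 (Ugp2, chr11:21221141-21271204), which makes the UDP-glucose that feeds glycogen synthesis and glucuronidation, had 221 CPM per kilobase (680.0 CPM), percentile 96.5. Glycogenin (Gyg), the protein primer of the glycogen particle, had 2.84 CPM per kilobase (4.87 CPM), percentile 30.9, a 77.7-fold ratio (140-fold in CPM without length). The liver synthase (Gys2), the liver phosphorylase (Pygl), the branching enzyme (Gbe1) and the phosphoglucomutases under the symbols Pgm1 and Pgm2 were not listed, so the committed steps of glycogen synthesis and breakdown in liver were not analysed here.

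Other genes of glycogen handling were read from a list of 27 symbols, of which 13 were listed. The muscle synthase Gys1 (0.684 CPM per kilobase) and the brain phosphorylase Pygb (1.88) were low. The regulatory subunits that bring protein phosphatase 1 to glycogen were higher, with Ppp1r3b at 63.5 and Ppp1r3c at 35.6 CPM per kilobase, as was Stbd1, a glycogen-binding protein, at 60.5. Phosphorylase kinase subunits Phka2 (6.51) and Phkg2 (6.78) and the synthase kinases Gsk3a (7.08) and Gsk3b (4.61) lay near the median of all listed genes. Lysosomal acid alpha-glucosidase (Gaa) had 19.3, and Pgm2l1 had 0.980.

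For fructose and galactose, 1 of 3 symbols was listed. Ketohexokinase (Khk, chr5:31223929-31233619, 9 exons), which phosphorylates fructose to fructose 1-phosphate, had 374 CPM per kilobase (418 CPM), percentile 98.1, the third highest of the 25 members per kilobase. Dak, the symbol under which triokinase of the same route is listed, had 72.2 CPM per kilobase, 5.18-fold below Khk (2.56-fold in CPM without length). Hk3 lay 144-fold below Khk per kilobase and 50.1-fold below it in CPM. The galactose genes Galk1 and Galt were not listed. Of 9 symbols read for the wider route, 2 were listed.

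Among 17 genes read that are known to regulate these pathways, 8 were listed. Cebpa, a transcription factor of hepatocytes and fat cells, was the highest at 101 CPM per kilobase, followed by Txnip (36.3), a glucose-induced inhibitor of thioredoxin, the glucocorticoid receptor gene Nr3c1 (25.9), Mlx (22.7), the partner of ChREBP on DNA, the insulin receptor gene Insr (20.0) and Mlxipl (19.0), which encodes the carbohydrate-responsive factor ChREBP itself. Foxo1 (3.88) and Crtc2 (2.68), which promote transcription of gluconeogenic genes in fasting, lay below the median of all listed genes per kilobase. In CPM without length, Foxo1 (21.5) lay above the median of all listed genes (18.7), whereas Crtc2 (7.05) stayed below it. On that scale Insr (187) and Nr3c1 (164) stood above Txnip (102).

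The 25 listed genes lie on 14 chromosomes, with 4 on chromosome 7 and 4 on the X chromosome (Pgk1, Pdha1, G6pdx and Pfkfb1). Their median listed mRNA length was 2224 bases beside 2959.5 for all listed genes. Across the 25 genes the rank correlation of CPM with length was 0.0527, and across all 7000 it was 0.0183. The GC content of their GENCODE transcripts ran from 39.1% for Ugp2 to 65.4% for Pgls, with a median of 52.6%, and its rank correlation with CPM was 0.0708. These correlations are across genes of the same pooled libraries, and genes are not independent replicates. For 22 of the 25 genes a GENCODE transcript lay within 10% of the listed length, and for 6 the lengths were identical. The exceptions were Gpi1 (2037 bases beside 2856 listed), Ugp2 (2683 beside 3081) and Khk (1257 beside 1117).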

How the data were processed

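Liver RNA of 4 mice, 2 per diet, was depleted of ribosomal RNA and sequenced as 50-base reads. Alignment by the authors used Bowtie and RefSeq mRNAs (mm9) with 1 entry per gene. Unique alignments with up to 2 mismatches were kept, and edgeR was used by the authors to compare the diets over genes above 1 CPM in at least 3 samples. The deposited table gives for each gene the mRNA length and the log2 of the mean CPM over all libraries, as made by the authors. It also gives their log2 fold change between the diets, p-value and FDR. These belong to the authors' own comparison and were not used. The table holds 0 columns of single mice. The count test planned for the diets was therefore not run, and total counts per library, and the precision they give, are unknown. Genes are in order of the authors' p-value and the largest p-values are not among them, so whether a gene is listed was not read as a result.

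CPM was computed as 2 to the power of the deposited log2 value and divided by length in kilobases. Percentiles are over all 7000 listed genes. Positions and transcripts come from GENCODE vM1 on NCBIM37, the assembly of mm9. The window comparison was checked on simulated sequences. Members and gene lists were chosen with earlier results of these data known. Every listed member is named, and other genes come from 9 lists of related genes and 5 marker lists, of which some genes are not reported here. Alternatives were CPM without length, length less the read length plus 1, the number of unique 50-base windows, a minimum of 5 CPM and, added after seeing the data, the length of the nearest GENCODE transcript. A ratio or level is said to have moved where it changed by over 1.5 times. Computation was in Python 3.11.15 with scipy 1.17.1, pandas 2.3.3 and numpy 2.4.6, and figures were drawn with matplotlib 3.10.9.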

Additional observations from a re-analysis of the deposited data

How the results depend on the processing

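No paired analysis was possible because the diets share no mouse number and the table has no value per mouse, so DESeq2, a count filter and leaving out each mouse were not run either. Without division by length, the members' median was 8.69-fold that of all listed genes in place of 13.6-fold, and the ratio of Pck1 to Pcx was 3.33, of Ugp2 to Gyg 140 and of Khk to Hk3 50.1. Of 29 ratios between genes, 8 kept their direction within 1.5 times on that scale, 13 moved by more and 8 turned: Aldoa to Gpi1 (0.576), Gapdh to Pklr (0.452), Pfkfb1 to Pfkfb2 (0.536), Pfkfb1 to Pfkfb3 (0.907), Pdhb to Pdha1 (0.851), Dlat to Pdhx (1.24), Taldo1 to Tkt (0.558) and Pgls to Pgd (0.714). Per unique window, the summed level of the glycolytic genes was 2416 in place of 740, the ratio of Gapdh to Pklr was 14.2, and 3 ratios turned: Tpi1 to Gapdh (0.170), Pgk1 to Gapdh (0.126) and Aldoa to Gpi1 (0.523). With the nearest GENCODE length, chosen after seeing the data, Aldoa to Gpi1 (0.758) and Gapdh to Pklr (0.990) turned. The Aldoa to Gpi1 ratios per unique window and by GENCODE length rest on a Gpi1 transcript shorter than its listed length. Subtracting the read length moved none of the 29 ratios and none of the 25 levels by over 1.5 times. The number of members above the 90th percentile was 17, 14 without division by length, 16 with the read length subtracted and 13 with a minimum of 5 CPM. It was not computed on the other scales, for which only the genes of the fixed lists were matched.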
